A study of Rattus norvegicus with 20 samples.

Results

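Smooth-muscle-type actin cytoskeleton genes were followed in rat progenitor cells in culture, with and without treatments. The set was 9 named genes of the contractile and actin cytoskeleton, Acta2, Tagln, Cnn1, Myl9, Tpm1, Tpm2, Csrp2, Actb and Coro1a, and it comprised every probe set of the Affymetrix rat array annotated to 1 of these symbols alone. The 9 genes are among 4736 that the tested probe sets name singly, and they have 17 of 8740 probe sets, at least 1 each. A further 6 probe sets are annotated to Acta2 or Actb together with other actin genes and are described separately. Transcript levels came from 20 arrays of 4 groups. Progenitors at high density (HD) were read on 6 arrays. Progenitors at low density with CCg were read on 4 arrays after RA/Fsk, which the labels tie to neurons (RA/Fsk), on 6 arrays after FBS, which the labels tie to astrocytes (FBS), and on 4 arrays with neither (LD). RA, Fsk and FBS are the common abbreviations of retinoic acid, forskolin and fetal bovine serum, and the labels do not expand CCg or give a strain, age, dose or time. The labels of HD do not mention CCg, so density and CCg cannot be told apart between HD and LD.

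Arrays that share a group and a number in their titles were combined as a mean of log2 values, and each such mean counts as 1 culture. There were 3 HD, 4 RA/Fsk, 4 FBS and 3 LD cultures. Values per culture are linear intensities. Intensities of different probe sets are not compared, because probes differ in brightness. Each difference is on the log2 scale, the first group over the other, and stands with its standard error (SE). All come from 1 limma fit of the 4 groups on log2(intensity + 4.99). Passing means p under 0.05 after Benjamini-Hochberg adjustment across all 8740 probe sets. The labels do not say what the numbers stand for, and the p-values cover only the spread between these samples, which may be technical. Both treatments and HD are set against the same LD cultures.

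In smooth muscle, actin filaments slide along myosin, and tropomyosins (Tpm1, Tpm2) lie along the filament while calponin (Cnn1) and transgelin (Tagln, also called SM22) bind its side. Acta2 encodes the actin of vascular smooth muscle, Actb the beta-actin of every cell, and Myl9 a regulatory light chain of smooth and nonmuscle myosin. Many of these genes are transcribed through serum response factor, which binds CArG boxes and is drawn to them by myocardin-related coactivators when free actin is used up. Astrocytes in culture and in scars can make contractile proteins. Csrp2 encodes a LIM-domain protein of smooth muscle and other cells, and Coro1a encodes coronin 1A, an actin-binding protein best known from leukocytes and also present in neurons.

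Promoters were available for 6 of the 9 genes, Acta2, Cnn1, Tpm1, Tpm2, Csrp2 and Coro1a, as the 250 bases before 1 start site per gene in a RefSeq table of assembly GRCr8. That site need not be the outermost end of the gene. The windows of Acta2, Cnn1 and Csrp2 lie outside the gene's span, while 246 bases of the Tpm1 window, all 250 of the Tpm2 window and 30 of the Coro1a window lie within it. The promoters of Acta2 and Tpm1 are shown because, of the 6, only these hold the motifs marked below. Serum response factor motifs have been studied in smooth muscle genes. Csrp2 and Coro1a, which also moved with the treatments, are not shown. Capitals mark CArG boxes with 1 letter off the full motif and the muscle element CATTCC, searched on both strands and seen here as its reverse complement.
Acta2 promoter, chr1:241172504-241172753, minus strand: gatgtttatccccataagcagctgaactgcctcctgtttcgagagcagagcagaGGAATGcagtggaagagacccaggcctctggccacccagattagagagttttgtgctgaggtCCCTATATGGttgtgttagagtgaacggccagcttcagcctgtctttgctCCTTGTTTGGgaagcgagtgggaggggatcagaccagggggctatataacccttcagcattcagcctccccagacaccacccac
Tpm1 promoter, chr8:76543416-76543665, minus strand: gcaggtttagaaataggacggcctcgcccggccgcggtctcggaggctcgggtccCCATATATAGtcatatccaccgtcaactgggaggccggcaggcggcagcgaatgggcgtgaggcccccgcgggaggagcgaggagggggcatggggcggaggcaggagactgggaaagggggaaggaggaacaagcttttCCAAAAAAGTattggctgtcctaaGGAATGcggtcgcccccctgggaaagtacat
None of the 6 promoters holds a full CArG box in this window, and 1.5% of 33469 rat promoters do. In Acta2, near matches begin 134 and 84 bases before the table's start site, and in Tpm1 they begin 195 and 55 bases before it, within the gene's span. Each of the 2 also holds CATTCC, 196 bases before that site in Acta2 and 31 in Tpm1. Cnn1, Tpm2, Csrp2 and Coro1a hold neither motif. Among all promoters 18.7% hold a near match of the CArG box and 12.1% hold CATTCC. The motifs overlap nowhere in these windows, and a match is a description of the letters only.

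Array medians ran from 41 to 57.5 and no detection calls were given. Marker lists were used to read the labels. For scale, 13.2% of all probe sets rose in FBS against LD, and 4.71% rose and 3.54% fell in RA/Fsk against LD. Of 10 astrocyte markers 8 were measured, and 4 of these rose in FBS against LD, Aldoc, Glul, S100b and Slc1a3, while Aqp4, Gja1, Slc1a2 and Aldh1l1 did not pass. Of 12 neuron markers 7 were measured, and in RA/Fsk against LD 0 rose and 1, Gap43, fell, while 3 of 8 astrocyte markers rose. The treated groups are therefore called by their treatment and not by the cell type in the labels. No marker of any list was at 0 on any array.

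Serum-treated cultures held more Acta2, Tagln, Myl9 and Tpm1 and less Csrp2, Coro1a and Actb than LD cultures, by at least 1 probe set that passed. Acta2 passed on 1 of its 3 probe sets, and the Actb call held under only 10 of the 20 alternative settings described below. Of the 17 probe sets 9 rose and 3 fell in FBS, or 70.6%, against 25.5% of all 8740 probe sets. The median difference was 0.98 log2 for the 17 and -0.09 over all probe sets. In RA/Fsk against LD, 2 rose and 5 fell, or 41.2% against 8.25% of all, with a median of -0.32 beside -0.05 over all. In RA/Fsk against FBS, 1 was higher and 10 were lower, or 64.7% against 18.4% of all, with a median of -1.30 beside 0.06. In HD against LD, 0 of 17 passed, with 0.858% of all probe sets passing, and limma gave 5 of 17 an unadjusted p under 0.05. The share of all probe sets under that unadjusted threshold is not given here, so the 5 have no scale beside them. They include both Myl9 probe sets, which differed in opposite directions. Since the 9 genes were picked with earlier results of these data known, these shares describe them and do not test them. Intensity per culture is bulk RNA, so fewer cells of a type and less RNA per cell cannot be told apart.

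**Figure D1:**
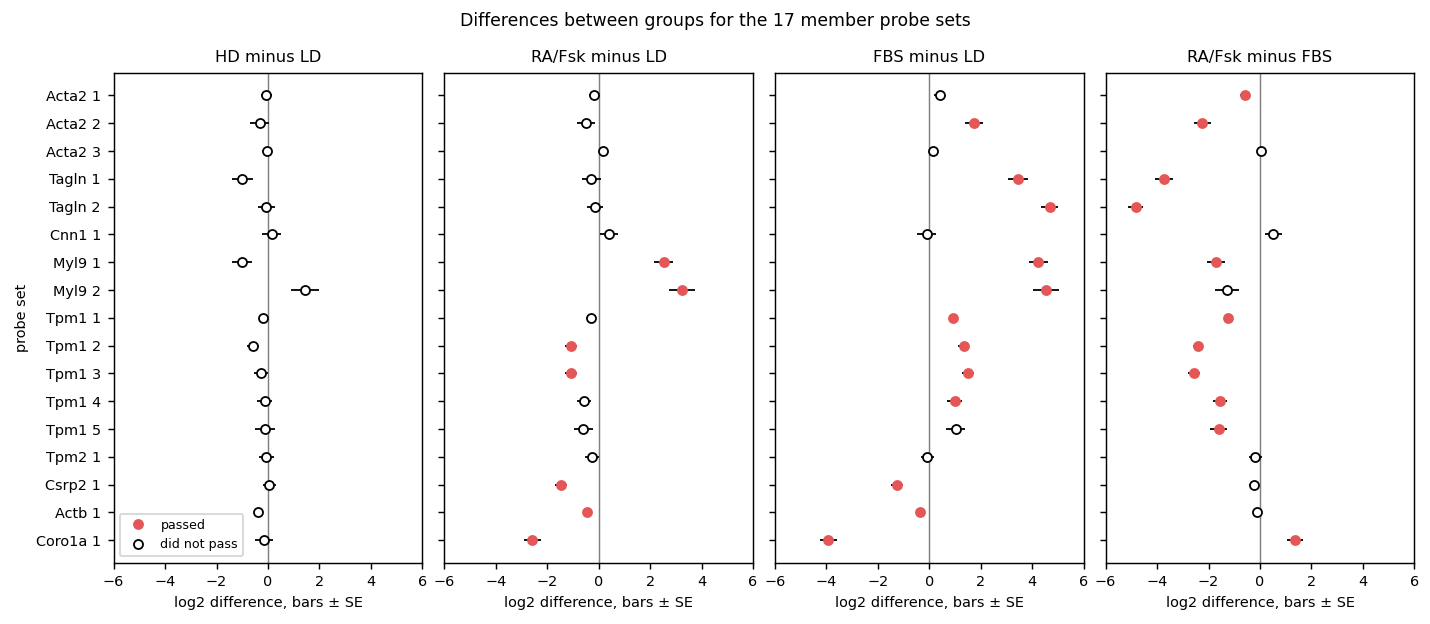
Log2 differences with SE (bars) of the 17 member probe sets, numbered within a gene from brightest to dimmest, in the 4 comparisons; filled points passed and open points did not. Tagln and Myl9 lie furthest right in FBS minus LD and Coro1a furthest left, and no point is filled in HD minus LD.

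Acta2, at chr1:241159723-241172503 in GRCr8, has 3 probe sets annotated to it alone. The second was 33.5, 8.4, 19.3 and 11.4 in RA/Fsk cultures, 109, 79.3, 82.6 and 116 in FBS cultures, and 25.5, 22.3 and 26.9 in LD cultures. HD cultures had 20.5, 26.0 and 12.3. All 4 FBS cultures lay above every other culture, and the RA/Fsk and HD cultures overlapped with LD. The rise in FBS was 1.75 ± 0.35 log2, or 3.37-fold (adjusted p = 0.00106), and RA/Fsk minus FBS was -2.24 ± 0.32 log2 (adjusted p = 9.3e-05). RA/Fsk minus LD was -0.49 ± 0.35 log2 (adjusted p = 0.484).

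The brightest Acta2 probe set is of the array's family type, and the second, which carries the rise in FBS, is of its shared type. Probes of either type can match more than 1 transcript. The brightest probe set read 142, 170, 134 and 186 in FBS and 130, 89.6 and 141 in LD, which overlap. The difference of 0.40 ± 0.20 log2 did not pass (adjusted p = 0.189). RA/Fsk minus FBS was -0.58 ± 0.19 (adjusted p = 0.0413), a call that ended under 10 of 21 alternatives. The third probe set stayed between 1.7 and 5.7 in every culture of RA/Fsk, FBS and LD, near the bottom of the array, and carries no call. Over the FBS and LD cultures the brightest probe set changed by 1.36 log2 less than the second (-1.36, 2-sided exact permutation p = 0.0286, the smallest that 4 against 3 can give, adjusted p = 0.245).

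Markers of other cells that can express Acta2 are given beside it. Among all probe sets 13.2% passed as higher in FBS than in LD and 12.3% as lower. Of 13 smooth muscle and pericyte markers 8 were measured, and 0 rose and 0 fell in FBS against LD, with a summed intensity of 482.6 to 581.1 in FBS and 448.8 to 668.6 in LD. Des, desmin, averaged 9.54 ± 1.74 in FBS and 9.58 ± 1.71 in LD (SD, n = 4 and 3). These values are dim, well below every array median, so a difference in Des could be missed. Of 10 fibroblast markers 8 were measured, with S100a4 higher in FBS by 4.39 ± 0.23 log2, Pdgfra and Thy1 lower and 5 that did not pass. Their median difference was -0.02 log2, beside -0.09 over all probe sets. Summed intensities, in which bright genes weigh most, were 1365 to 1773 in FBS and 877.2 to 1252 in LD. The part of such cells in the Acta2 and Tagln results was not tested.

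Tagln, at chr8:55121647-55127121, rose on both of its probe sets, which come from the same sequence entry and so are not independent readings. Its brighter probe set read 37.3, 22.1, 14.4 and 20.8 in RA/Fsk cultures, 378, 217, 340 and 601 in FBS cultures and 15.3, 35.4 and 40.7 in LD cultures. The second read 5.2, 3.5, 9.5 and 3.6 in RA/Fsk, 319, 218, 250 and 375 in FBS, and 9.39, 7.9 and 2.9 in LD. On both probe sets every FBS culture lay far above every LD and RA/Fsk culture, and RA/Fsk overlapped with LD. The rise in FBS was 3.45 ± 0.38 log2 (adjusted p = 3.41e-06) and 4.67 ± 0.31 log2 (adjusted p = 1.73e-08).

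The size of the Tagln fold rests on dim LD values, so it moved with the pseudocount. Over the alternatives the first difference ran from 2.37 to 3.69 log2 and the second from 2.56 to 5.32, and both passed in each of the 20 and 19 alternatives run. RA/Fsk lay below FBS by -3.73 ± 0.35 and -4.83 ± 0.29 log2 (adjusted p = 1.07e-06 and 4.34e-09). RA/Fsk minus LD was -0.28 ± 0.38 and -0.16 ± 0.31 log2, and neither passed (adjusted p = 0.756 and 0.85).

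Cnn1, at chr8:28908437-28917099, has 1 probe set, and it was dim. It read 17.8, 25.2, 38.5 and 19.9 in RA/Fsk cultures, 12.0, 15.4, 17.7 and 17.3 in FBS cultures and 28.3, 12.3 and 13.6 in LD cultures. FBS and LD overlapped, with a difference of -0.11 ± 0.35 log2 (adjusted p = 0.871). Cnn1 thus gave no call in the comparison where Tagln, another actin-binding gene of smooth muscle, passed on both probe sets, and the 2 genes' changes were not tested against each other.

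Myl9, at chr3:165742020-165748409, was the only one of the 9 genes to rise under both treatments. Its first probe set read 291, 332, 284 and 320 in RA/Fsk cultures, 609, 853, 1098 and 1886 in FBS cultures, and 40.1, 47.9 and 61.8 in LD cultures. HD cultures had 25.0, 43.6 and 8.74. The 3 groups RA/Fsk, FBS and LD did not overlap, with FBS highest and LD lowest. The rise was 2.52 ± 0.37 log2 in RA/Fsk (5.74-fold, adjusted p = 0.000306) and 4.24 ± 0.37 in FBS (18.9-fold, adjusted p = 2.76e-07).

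The second Myl9 probe set, from the same sequence entry as the first and so not independent of it, had the same order of groups. It read 213, 372, 146 and 327 in RA/Fsk cultures, 507, 638, 635 and 702 in FBS cultures and 62.7, 3.1 and 30.1 in LD cultures. LD culture 3, at 3.1, lay far below the other 2, and without it the rises were 2.38 log2 in RA/Fsk and 3.67 in FBS, while without LD culture 1 they were 3.91 and 5.20. The rises were 3.24 ± 0.50 log2 in RA/Fsk (adjusted p = 0.000489) and 4.54 ± 0.50 in FBS (adjusted p = 3.44e-06). RA/Fsk minus FBS was -1.72 ± 0.34 on the first probe set (adjusted p = 0.00158) and -1.30 ± 0.46 on the second (adjusted p = 0.0636). The second passed under 5 of 21 alternatives, among them that with the replicate number as a block (adjusted p = 0.0317). That block has little basis here, since deviations of same-numbered RA/Fsk and FBS cultures correlated at only -0.09 to 0.14.

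Tpm1, at chr8:76516654-76543661, is spliced into muscle and nonmuscle tropomyosins, and its 5 probe sets may read different forms. The second read 405, 578, 526 and 694 in RA/Fsk cultures, 2864, 2791, 2673 and 3298 in FBS cultures, and 935, 1413 and 1130 in LD cultures. HD cultures had 1042, 518 and 833. FBS lay above LD and RA/Fsk below it, with no overlap on either side. The rise in FBS was 1.34 ± 0.22 log2, or 2.53-fold (adjusted p = 0.000162), and the fall in RA/Fsk was -1.07 ± 0.22 log2 (adjusted p = 0.00453).

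Of the 5 Tpm1 probe sets, 4 rose in FBS and 2 fell in RA/Fsk against LD, and all 5 were lower in RA/Fsk than in FBS. The third read 443, 397, 375 and 737 in RA/Fsk, 2631, 2706, 2665 and 3380 in FBS, and 879, 1037 and 1074 in LD. It rose by 1.51 ± 0.25 log2 in FBS (adjusted p = 0.000182) and fell in RA/Fsk (-1.07 ± 0.25, adjusted p = 0.011). The brightest rose by 0.92 ± 0.16 in FBS (adjusted p = 0.000263) and was -0.32 ± 0.16 in RA/Fsk (adjusted p = 0.265). The fourth rose by 0.98 ± 0.28 in FBS (adjusted p = 0.0165), a call that ended without LD culture 3 (0.72, adjusted p = 0.107) and with the GAPDH ratio described below as a covariate (0.44, adjusted p = 0.362). The fifth differed by 1.02 ± 0.37 (adjusted p = 0.0542) and passed under 7 of 20 alternatives, among them without LD culture 4 (1.31, adjusted p = 0.0268).

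**Figure D2:**
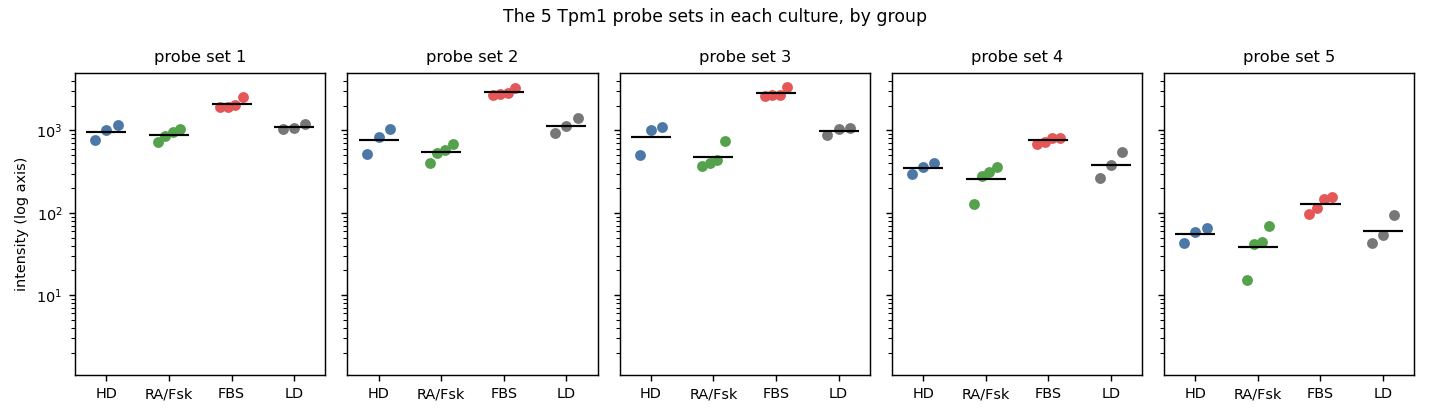
Intensity (log axis) of the 5 Tpm1 probe sets, from brightest to dimmest, in each culture (points) of HD, RA/Fsk, FBS and LD, with the mean on the log2 scale (lines). On every probe set the 4 FBS cultures lie above all 3 LD cultures and all 4 RA/Fsk cultures.

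The Tpm1 probe sets followed each other, with Pearson's r of 0.81 to 0.98 over the 14 cultures for their 10 pairs, which share arrays and group differences. Between RA/Fsk and FBS the brightest probe set moved by 1.18 log2 less than the second and 1.34 less than the third (2-sided exact permutation p = 0.0286 each, the smallest possible, adjusted p = 0.245). In all, 15 pairs of probe sets of 1 gene were compared in the 4 comparisons. Of the 60 tests 7 had p = 0.0286 by the exact permutation test. With that floor and 60 tests, few results could pass after adjustment, and 0 did, so these tests do not tell whether probe sets of a gene changed unequally.

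Tpm2, at chr5:62566712-62576066, encodes beta-tropomyosin of muscle. Its single probe set read 1.7 to 4.5 in RA/Fsk, 1.9 to 6.92 in FBS and 2.2 to 10.3 in LD. These are among the lowest values of the array, and no comparison passed.

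**Figure D3:**
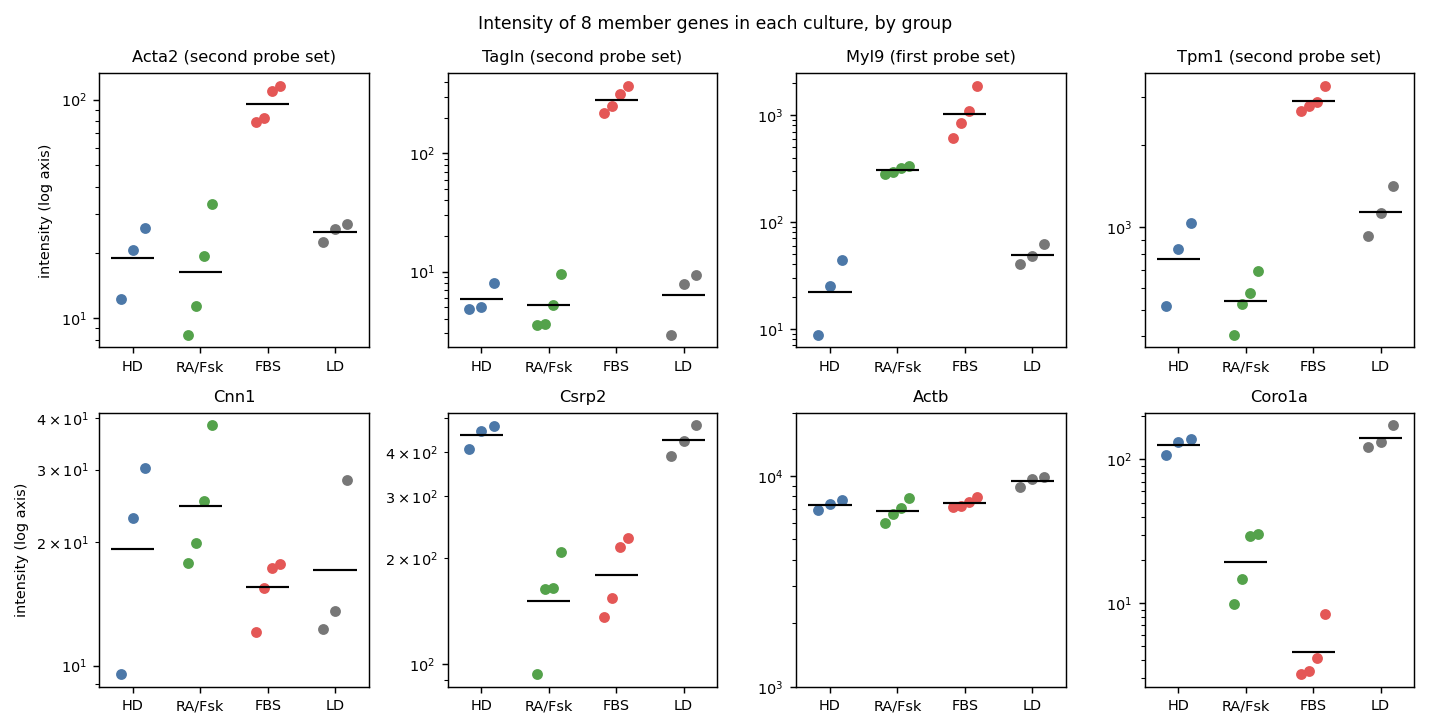
Intensity (log axis, its range set for each gene) of 1 probe set for each of 8 member genes in every culture (points), with the mean on the log2 scale (lines). FBS stands above LD for Acta2 (its second probe set), Tagln, Myl9 and Tpm1, and both treated groups stand below LD for Csrp2, Actb and Coro1a.

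Csrp2, at chr7:48235415-48254049, was lower in both treated groups. It read 164, 164, 93.7 and 209 in RA/Fsk cultures, 228, 136, 215 and 154 in FBS cultures, and 391, 432 and 478 in LD cultures, while HD cultures had 475, 408 and 461. The treated cultures overlapped with each other and with none of the LD or HD cultures. The fall was -1.48 ± 0.23 log2 in RA/Fsk (adjusted p = 0.000548) and -1.25 ± 0.23 in FBS (adjusted p = 0.000554), and each held in all 20 alternatives. RA/Fsk minus FBS was -0.23 ± 0.21 (adjusted p = 0.544).

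Actb, at chr12:16776664-16779634, changed least among the members that passed. Its own probe set read 6001, 7080, 6614 and 7861 in RA/Fsk cultures, 7177, 7145, 7535 and 7910 in FBS cultures and 8877, 9685 and 9892 in LD cultures. HD cultures had 7663, 6870 and 7385. LD stood above the 11 other cultures. The fall was -0.47 ± 0.12 log2 in RA/Fsk (adjusted p = 0.0202) and -0.35 ± 0.12 in FBS (adjusted p = 0.0384), and HD minus LD was -0.38 ± 0.13 (adjusted p = 0.192).

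The direction of Actb in FBS depends on the scaling: with quantile normalization the difference was 0.20 (adjusted p = 0.375), against -0.44 with median centring. The FBS call was lost under 10 of 20 alternatives and the RA/Fsk call under 6 of 20. For RA/Fsk it ended without LD culture 3 (adjusted p = 0.0805) or LD culture 4 (0.0799). For FBS it ended when any one of LD cultures 3 and 4 and FBS cultures 1 to 3 was left out (adjusted p = 0.072 to 0.122). Median centring moved the median of all probe sets in FBS minus LD (-0.18, against -0.09 as deposited), in HD minus LD (0.02, against -0.08 as deposited) and in RA/Fsk minus FBS (0.16, against 0.06 as deposited).

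The array also carries 3 control probe sets along beta-actin, which were left out of the fit. The one at the 3' end averaged 8630 ± 1047 in RA/Fsk, 9843 ± 940 in FBS and 11897 ± 464 in LD (SD, n = 4, 4 and 3). Its log2 difference was -0.47 in RA/Fsk against LD (2-sided exact permutation p = 0.0286, the smallest possible, adjusted p = 0.171) and -0.28 in FBS against LD (exact permutation p = 0.0571, adjusted p = 0.171). The middle and 5' controls differed by -0.42 and -0.50 in RA/Fsk and by -0.29 and -0.16 in FBS. Of the 12 tests over the 3 controls and 4 comparisons 0 passed after adjustment and 1 had an unadjusted p under 0.05, a design in which few could pass. Actg1, the gamma-actin of nonmuscle cells, rose by 0.54 ± 0.13 log2 in FBS (adjusted p = 0.00541, and 0.104 with median centring) and differed by 0.24 ± 0.13 in RA/Fsk (adjusted p = 0.319).

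Coro1a, at chr1:190726129-190731133, fell furthest. It read 14.8, 30.4, 29.4 and 9.9 in RA/Fsk cultures, 4.19, 3.2, 3.4 and 8.4 in FBS cultures, and 122, 133 and 174 in LD cultures, and HD cultures had 133, 139 and 108. The RA/Fsk, FBS and LD cultures did not overlap, with LD highest and FBS lowest, while HD overlapped with LD. The fall was -2.58 ± 0.33 log2 in RA/Fsk (adjusted p = 0.000101) and -3.93 ± 0.33 in FBS (adjusted p = 1.94e-07). The FBS readings lie as low as those of Tpm2, at the bottom of the array, so the size of that fall depends on the pseudocount, with -4.70 at a pseudocount of 1 and -1.81 at 50. RA/Fsk lay above FBS by 1.35 ± 0.31 (adjusted p = 0.0044), a call that ended with a pseudocount of 50 (0.37, adjusted p = 0.0722) and with the GAPDH covariate (1.07, adjusted p = 0.075).

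Leukocyte and microglia markers are given beside Coro1a because blood-derived cells express it. Of 23 such markers 15 were measured. Among all probe sets 12.3% passed as lower in FBS than in LD, and 3.54% as lower in RA/Fsk than in LD. In FBS against LD 0 rose and 2 fell, Vav1 and Cd48, with summed intensities of 410.1 to 503.2 in FBS and 456.7 to 559.0 in LD. In RA/Fsk against LD 0 rose and 1, Cd48, fell, with sums of 364.0 to 609.2 in RA/Fsk and 456.7 to 559.0 in LD. Ptprc, the leukocyte antigen CD45, averaged 85.9 ± 34.2 in RA/Fsk, 87.1 ± 19.7 in FBS and 100 ± 13.2 in LD (SD, n = 4, 4 and 3), with differences of -0.27 and -0.21 that did not pass. The part of such cells in the fall of Coro1a was not tested.

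The log2 ratio of the 5' to the 3' GAPDH control was higher by 0.27 in FBS than in LD (-0.06 against -0.33, 2-sided exact permutation p = 0.0286, the smallest possible) and differed by 0.26 between HD and LD (exact permutation p = 0.1, the smallest that 3 against 3 can give) and by 0.04 between RA/Fsk and LD (exact permutation p = 0.714). With this ratio as a covariate the Acta2 rise in FBS was 1.16 log2 and did not pass (adjusted p = 0.0531), while Tagln, Myl9, Csrp2 and Coro1a passed on every probe set in FBS and the first 3 Tpm1 probe sets did too.

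In HD against LD none of the 17 probe sets passed, as given above. Tagln read 16.5, 7.48 and 12.4 in HD on its brighter probe set, which overlaps with LD (adjusted p = 0.28), and its second differed by -0.07 ± 0.34 log2 (adjusted p = 0.951). The second Myl9 probe set differed by 1.44 ± 0.53 (adjusted p = 0.237), while the first was lower in HD on average and did not pass (adjusted p = 0.268). The Actb cultures were the only ones among the 17 probe sets not to overlap, beside 19.7% of all probe sets without overlap, and 0.435% of all probe sets passed as higher and 0.423% as lower. Actb also passed when each array counted as its own sample (-0.35, adjusted p = 0.039), where it was the 1 probe set of the 17 to pass.

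Probe sets shared with other actin genes were read for comparison, without assigning them to a gene. The 2 annotated to Actb, Actg1 and Actg1l1 differed by -0.32 and -0.61 log2 in FBS against LD, and the second of these passed (adjusted p = 0.00706). Of the 4 annotated to Acta2 and Actc1, 0 passed in FBS against LD, and 1 was lower in RA/Fsk than in FBS (-0.65, adjusted p = 0.00271).

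Other genes of the contractile and actin machinery were taken from 4 lists. Of 24 further genes of smooth muscle contraction and relatives of them 17 were measured, and 5 rose and 0 fell in FBS against LD, with a median of 0.38 log2. Those that rose were Cald1, Csrp1, Myl6b, Cnn3 and Tpm4. Among those that did not pass were Actg2 (-0.59, adjusted p = 0.27), Des and Kcnmb1. For scale, 13.2% of all 8740 probe sets rose and 12.3% fell in FBS, with a median of -0.09. Each list gene is read by its brightest probe set, while these shares include dim probe sets, so the 2 are not fully alike. In the brighter 50% of the 8740, fitted alone, 976 rose and 934 fell in FBS against LD. Cald1, caldesmon, which holds actin back from myosin, rose by 2.21 ± 0.31 log2 in FBS, with means of 170 ± 83.2 in FBS and 30.0 ± 1.58 in LD (SD, n = 4 and 3). Myl6b, an essential myosin light chain, rose by 1.72 ± 0.18 in FBS and 0.62 ± 0.18 in RA/Fsk, and Csrp1, a relative of Csrp2, rose by 1.67 ± 0.18 in FBS and 1.12 ± 0.18 in RA/Fsk. The Myl6b call in RA/Fsk (adjusted p = 0.0432) ended under 11 of 20 alternatives, among them without LD culture 1 or 4 or RA/Fsk culture 1, 3 or 4. Myh11, the smooth muscle myosin heavy chain, differed by -0.86 ± 0.51 in FBS against LD and did not pass (adjusted p = 0.257).

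Of 43 genes of filaments, adhesion and nonmuscle myosin 28 were measured, and 18 rose in FBS while 1, Ezr, fell, with a median of 1.14. Pdlim1, a PDZ and LIM protein of stress fibres, rose by 2.95 ± 0.21 log2 in FBS, with 1972 ± 555 in FBS and 245 ± 27.0 in LD. The regulatory light chains Myl12a and Myl12b rose by 2.33 ± 0.18 and 2.01 ± 0.21, and differed by -0.42 ± 0.18 and 0.44 ± 0.21 in RA/Fsk, where neither passed. Ezr, ezrin, which ties actin to the membrane, fell in FBS (-1.48 ± 0.26) and in RA/Fsk (-1.02 ± 0.26). In RA/Fsk 2 rose, Add3, an adducin, with 367 ± 39.5 in RA/Fsk and 91.5 ± 34.2 in LD (SD, n = 4 and 3), and Limk2, a kinase that acts on cofilin, by 2.39 ± 0.25 log2. Both also rose in FBS. The fall of Ezr in RA/Fsk (adjusted p = 0.0193) did not pass without LD culture 3 (0.116) or LD culture 4 (0.0564).

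Of 38 genes of actin turnover and bundling 18 were measured, and 10 rose and 0 fell in FBS, with a median of 0.53. Pls3, plastin 3, a bundling protein, rose by 3.75 ± 0.31 in FBS and 1.26 ± 0.31 in RA/Fsk. It was also the 1 gene of the 4 lists to pass in HD against LD (1.63 ± 0.33, adjusted p = 0.0242), a call that ended when HD culture 1, 2 or 4 or LD culture 3 was left out (adjusted p = 0.0551 to 0.129). Its RA/Fsk call ended without LD culture 3 (adjusted p = 0.0976). Arpc1b, a subunit of the complex that branches filaments, rose by 1.71 ± 0.21 in RA/Fsk and 1.07 ± 0.21 in FBS.

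Of 22 genes listed for serum response factor and the serum response 10 were measured, and 9 rose and 0 fell in FBS, with a median of 2.04. Those that rose include the growth factors Tgfb1, Tgfb2 and Tgfb3, while Egr1 did not pass (0.92, adjusted p = 0.181). Srf and its coactivators were not measured. Fos and Junb rose in FBS and also in RA/Fsk (1.47, adjusted p = 0.00667, and 1.31, adjusted p = 0.0154). The Junb call in RA/Fsk ended without LD culture 4. Ccn1, a secreted matrix protein and a classic target of serum response factor, averaged 41.6 ± 11.3 in RA/Fsk, 546 ± 170 in FBS and 26.8 ± 4.03 in LD, and rose by 4.07 ± 0.28 in FBS. Egr2, an early response factor, rose by 3.31 ± 0.40 in RA/Fsk and 2.79 ± 0.40 in FBS. Dusp1, a phosphatase, moved both ways, by -1.57 ± 0.37 in RA/Fsk (adjusted p = 0.0141) and 2.41 ± 0.37 in FBS (adjusted p = 0.00011). The Dusp1 call in RA/Fsk ended without LD culture 3 (adjusted p = 0.0524) or LD culture 4 (0.0746). Tgfb1, which encodes a growth factor that raises Acta2 in fibroblasts, rose by 2.45 ± 0.28 in FBS and differed by 0.17 ± 0.28 in RA/Fsk.

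In RA/Fsk against LD these 4 lists had 2, 2, 3 and 3 genes up and 0, 1, 0 and 1 down, in the order given, and 4.71% of all probe sets rose and 3.54% fell. With the replicate number as a block, which pairs these cultures, Actn4 (0.73, adjusted p = 0.0142) and Egr1 (1.54, adjusted p = 0.0426) also rose, for 2, 3, 3 and 4 up and the same counts down. In RA/Fsk against FBS they had 0, 1, 2 and 0 higher and 6, 15, 5 and 7 lower, where 8.27% of all probe sets were higher and 10.1% lower. The 2 higher in the turnover list became 0 or 1 under 11 of 21 alternatives, and 0 without FBS culture 1, FBS culture 3, RA/Fsk culture 1 or RA/Fsk culture 3 and with the GAPDH covariate.

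**Figure D4:**
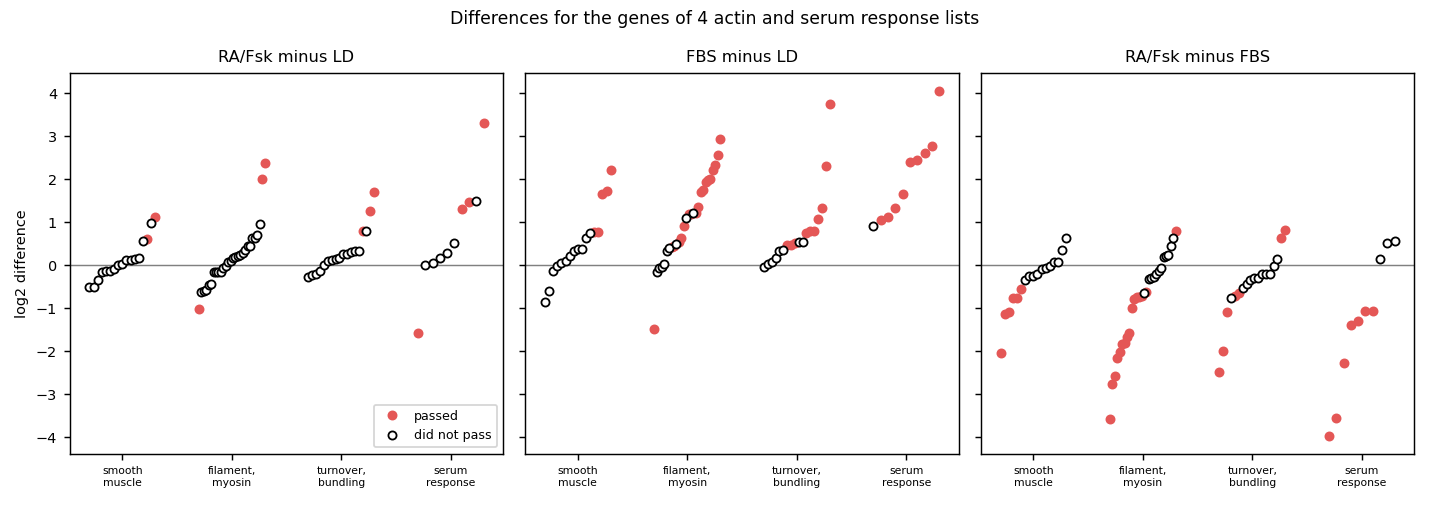
Log2 differences of the measured genes of 4 lists, each gene by its brightest probe set and sorted within its list; filled points passed and open points did not. Most points of the filament, adhesion and myosin list and of the serum response list lie above 0 in FBS minus LD and below 0 in RA/Fsk minus FBS.

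By Pearson correlation over the 14 cultures, the genes most like the brightest Acta2 probe set were Soat1 (r = 0.91), Lman1 (0.87), Rab3d (0.86), Tgoln2 (0.86) and Afdn (0.86). Of these only Soat1, a cholesterol-esterifying enzyme, rose in FBS (0.78 ± 0.27 log2, adjusted p = 0.048). Those most like Coro1a were Polr2f (0.96), Fdps (0.95), Pafah1b3 (0.94), Mrpl23 (0.94) and Rps3 (0.94). All 5 fell in both treated groups, Fdps, an enzyme of the mevalonate pathway, by -1.10 ± 0.20 in RA/Fsk and -1.83 ± 0.20 in FBS. Points within a group share its treatment, so these correlations are descriptions. Among members, the second probe sets of Tagln and Acta2 correlated at 0.93, Coro1a and Csrp2 at 0.78, and Coro1a and the second Tagln probe set at -0.73.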

How the data were processed

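The deposited table holds a linear intensity per probe set and array, 8799 probe sets on 20 arrays. How the authors summarised, background-corrected and scaled these intensities is not given in the sources used here. From the values, each array has a mean of 200.3 to 200.5 after the outer 2% at each end are left out. The 59 control probe sets were left out. Genes come from GEO's platform annotation, with 7006 tested probe sets of 1 symbol, 308 of several and 1426 of none, and coordinates from RefSeq GRCr8. Promoter sequences are RefSeq's.

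Intensities were taken as log2(intensity + 4.99), 10% of the median positive value, averaged over arrays of a culture and fitted with limma 3.58.1 in R 4.3.3 (lmFit, eBayes with an intensity trend, 10 residual degrees of freedom). The code was tested on simulated data. Precision is limited by how few arrays there are. The members and lists were chosen with earlier results of these data known. Named genes were all member probe sets and the 5 genes most correlated with Acta2 and with Coro1a. From the lists they were genes among the first 4 of their list by adjusted p in some comparison. Not every gene so ranked is named, and some are described in a comparison where they did not rank so. Actg1, Actg2, Actn4 and the cell type markers were chosen after their values were seen. Alternatives were the pseudocount, a filter on dim probe sets, quantile normalization, median centring, single arrays, a block, no trend, a GAPDH covariate, controls kept, 2 groups only and each culture left out.

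The titles' numbers recur across groups. Deviations of same-numbered RA/Fsk and LD cultures correlated at 0.33, 0.16 and 0.11, all above 0.1, so the numbers may pair these cultures. The main fit has no term for such pairs, so its RA/Fsk against LD results are unpaired. A fit with the number as a block is given as an alternative. Other pairs of groups had at least 1 correlation under 0.1.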

Additional observations from a re-analysis of the deposited data

Results flagged for a closer look

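In FBS culture 4 the third Tpm1 probe set read 3380, apart from the other 3 FBS cultures at 2631 to 2706. The gap to the nearest culture was 0.887 of the group's range. With 34 groups of 4 cultures examined, chance alone flags about 1 in 20.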

How the results depend on the processing

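The number of member probe sets that passed stayed between 9 and 13 in FBS against LD (12 as reported, 20 alternatives, 10 to 12 with a culture left out). It stayed between 6 and 7 in RA/Fsk against LD (7, 20 alternatives) and between 8 and 12 in RA/Fsk against FBS (11, 21 alternatives, 10 to 11 with a culture left out). In HD against LD it was 0, and 1 where single arrays were the samples. Of the calls, 9 of 12, 6 of 7 and 8 of 11 held in every alternative in that order, and calls of Acta2, Tpm1, Actb and Coro1a were among those that did not. Of the called values only Actb in FBS against LD changed sign, at 0.20 with quantile normalization, and the cause was not tested. With the replicate block 7 member probe sets passed in RA/Fsk against LD, where the numbers may pair the cultures, and no member's call changed. In FBS against LD, where deviations of same-numbered cultures correlated at -0.06, 0.10 and 0.03, the block gave 13. In RA/Fsk against FBS it gave 12. The labels do not say whether these cultures are paired. Tests of probe set pairs gave 0 calls in each of 17 alternatives, but few could pass in so small a design, so this says nothing about stability. Among list counts that moved by over 1.5 times, in RA/Fsk against LD the filament list had 5 up without RA/Fsk culture 1 and 3 down without RA/Fsk culture 3, and the turnover list 1 up with 2 groups only; in RA/Fsk against FBS the turnover list had 0 to 2 higher. In FBS against LD the filament list had 13 to 19 up. Intensities of Tpm2, of the third Acta2 probe set and of Coro1a in FBS lie near the bottom of the array, which limits what can be seen there.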
